A study of Mus musculus with 17 samples.

Results

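The genes described are the cytosolic ribosomal proteins, the protein subunits of the ribosome that translates nuclear messages. They were chosen by mouse symbol: Rpl or Rps followed by a digit, or Rplp0, Rplp1, Rplp2 or Rpsa, leaving out the Rps6k kinases and pseudogenes. That gave 88 genes of 16569 named genes, with 103 RefSeq messenger RNA entries, and where a gene had several entries (11 genes) the one with the highest mean was used. The 88 held 43 large subunit genes, 30 small subunit genes, 3 genes of the stalk (Rplp0, Rplp1, Rplp2), 11 paralog or retrocopy forms such as Rpl3l and Rpl22l1, and Rps19bp1, a binding partner of Rps19 that carries the symbol only. Fau and Rack1 are ribosomal proteins with other symbols and are given apart, and Rps27 was not analysed here.

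RNA was sequenced from the right ventricle (RV) and left ventricle (LV) of male C57Bl/6 mice, with no treatment or transgene in any group, on the day of birth (P0, before the ductus closes), at postnatal day 3 (P3, called a transition) and at postnatal day 7 (P7, when most cardiomyocytes are described as terminally differentiated). The groups were RV P7 with 2 libraries, RV P3 and RV P0 with 3 each, and LV P7, LV P3 and LV P0 with 3 each. All 17 libraries were bulk ventricle, so fewer cells of a type and less RNA per cell cannot be told apart. Values are RPKM, which divide the reads of an entry by its length and by the depth of the library. The depths, inferred from the values, were 27561845 to 41061058 reads (median 36153964). Means are given ± SD, with n = 2 in RV P7 and n = 3 in the other groups, and log2 changes ± SE.

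Ribosomes are built in the nucleolus from ribosomal RNA and the ribosomal proteins, nearly all of which are present as a single copy per particle. Ribosomal protein messages are abundant, and most begin with a run of pyrimidines at their 5′ end, the TOP motif (5′ terminal oligopyrimidine), through which mTOR and Larp1 control their translation. In the mouse heart the days after birth are the time when cardiomyocytes stop dividing and go on to grow in size.

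The annotated starts of the genes are shown first because the TOP motif is defined there. The RefSeq promoter table (GRCm38.p6) held windows for 56 of the 76 subunit and stalk genes. Each line gives 30 bases, 5′ to 3′ on the gene's strand, with the annotated start as base 16, and capitals mark the unbroken run of C and T that covers the start. The run was extended to both sides of base 16, and bases before base 16 lie upstream of the annotated start. A run can therefore hold bases outside the message, and its length is not the length of a TOP motif. A run that reaches the edge of these 30 bases was counted within them, and a gene with several windows counts by its longest run. The genes shown are the 5 with the longest runs, a small subunit gene with a known TOP message (Rps6), the gene with the largest fall among the subunits in the LV (Rpl35a), and Rpl3l, which has no such run.
Rpl7a, chr2:26910792-26910821, plus strand: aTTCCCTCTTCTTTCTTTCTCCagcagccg
Rpl27a, chr7:109519180-109519209, plus strand: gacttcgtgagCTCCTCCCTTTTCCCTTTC
Rpl34, chr3:130730323-130730352, minus strand: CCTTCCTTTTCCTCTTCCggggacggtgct
Rpl35, chr2:39005117-39005146, minus strand: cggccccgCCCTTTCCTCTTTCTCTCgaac
Rpl15, chr14:18270972-18271001, minus strand: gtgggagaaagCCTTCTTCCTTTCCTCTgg
Rpl35a, chr16:33056467-33056496, plus strand: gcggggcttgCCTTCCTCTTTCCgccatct
Rps6, chr4:86857353-86857382, minus strand: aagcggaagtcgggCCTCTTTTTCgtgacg
Rpl3l, chr17:24727811-24727840, plus strand: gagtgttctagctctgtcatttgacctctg
A run of at least 5 pyrimidines over the start base was present in 19 of the 56 genes (33.9%) and in 1698 of 16785 other protein-coding genes (10.1%). The longest, in Rpl7a, was 21 bases, and Rpl34, called in neither chamber below, had a run of 18. In both genes most of the run lies upstream of the annotated start. The letters CCGGAAG, on either strand of the 300-base window, were present in 24 of the 56 genes (42.9%) and in 13.2% of the others. These are letters at annotated starts, which were not measured here. The log2 change at P7, described below, had a median of -0.72 in the RV and -0.65 in the LV over the 19 genes with a run, against -0.80 and -0.66 over the 36 tested genes without one.

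Most subunit messages stood between 100 and 1000 RPKM. By mean RPKM over the 17 libraries, 5 genes were above 1000 RPKM, 66 lay between 100 and 1000, 7 between 10 and 100, 3 between 1 and 10, and 7 under 1. Among the highest were Rpl23a (1881 RPKM), Rps29 (1164), Rps15 (1058) and Rpl35 (1030.2). The 5 lowest were Rpl10l, a retrogene of Rpl10 used in the testis, Rps27rt, Rpl32l, Rpl22 and Rpl37rt, each with a mean of at most 0.0636 RPKM. Rpl39l, the testis form of Rpl39, had a mean of 0.148 RPKM. Some subunit genes were listed far below their partners in the particle: Rpl22 at 0.0422 RPKM, Rpl26 at 3.82, Rpl41 at 9.31, Rpl30 at 10.1, Rps15a at 41.8 and Rpl19 at 45.6. The Rps15a entry was not low in reads: it held 5719 to 11174 reads per library over a recovered length of 5158 bases. Rps23 held 4249 to 9618 reads over 572 bases. No source used here says how reads shared with other entries, or with the many processed copies of these genes, were assigned, so a low entry may not be the total of its gene.

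Summed over the 88 genes, the messages took a smaller share of the listed RPKM at P7 than at P0. In the RV they made up 14.8, 11.9 and 12.6% of the RPKM of all entries in the P0 libraries, 11.2, 11.96 and 10.8% at P3 and 9.24 and 9.93% at P7. In the LV they made up 13.3, 12.3 and 13.1% at P0, 10.6, 11.1 and 9.95% at P3 and 9.81, 10.4 and 10.03% at P7. In both chambers every P7 library lay below every P0 library, and in the LV the P3 and P7 libraries overlapped. The small subunit sum divided by the large subunit sum was 0.846 and 0.860 in the RV P7 libraries, against 0.826 to 0.861 in the RV P0 libraries, which overlap. In the LV it was 0.847 to 0.851 at P7, against 0.805 to 0.819 at P0, without overlap.

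**Figure D1:**
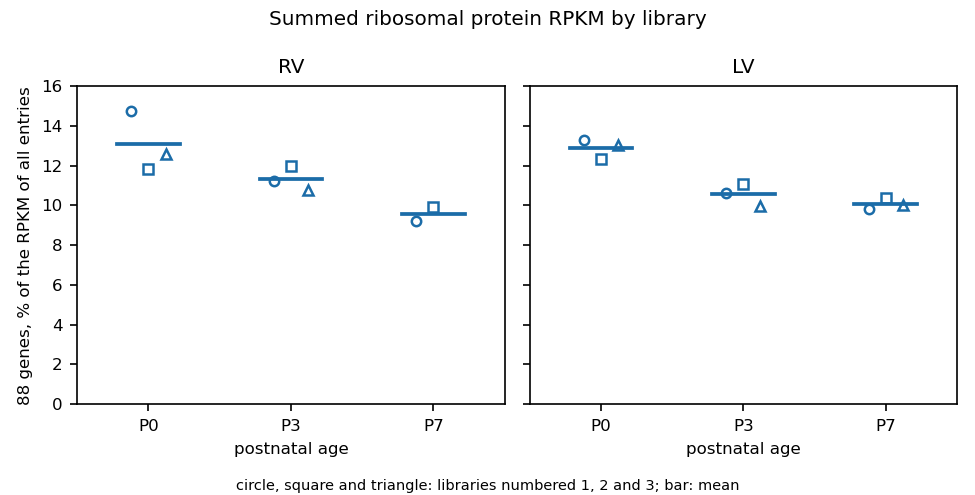
RPKM of the 88 ribosomal protein genes as a percentage of the RPKM of all entries (vertical axis) by postnatal age, in the RV (left) and the LV (right). Points are single libraries and bars are group means. All P7 libraries lie below all P0 libraries of their chamber, and the highest library is RV P0 replicate 1 at 14.8%.

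Some libraries stood apart. Across the 75 tested subunit and stalk genes, RV P0 replicate 1 lay 0.22 above its group mean on the log2 scale (median) and held the highest value of its group for 64 of them, and RV P7 replicate 1 lay 0.12 below its group mean and was the lower of the 2 RV P7 libraries for 69 of them. The entry NM_008710, outside the set, stood at 0.128 to 0.205 RPKM in 7 P3 and P7 libraries and at 2.99 to 15.6 RPKM in the other 10, among them all P0 libraries, so the libraries differed by more than age and chamber. Counts without these libraries stand beside some of the results they touch.

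Between P0 and P7 nearly the whole set fell, in both ventricles and in both subunits. Of the 88 genes, 81 passed the filter of at least 1 RPKM in at least 2 libraries. In the RV 76 of these 81 were called lower and 1 higher at P7 against P0, where 46.1% of all 10668 entries tested were called lower and 9.81% higher (limma on log2(RPKM + 1), Benjamini-Hochberg adjusted p under 0.05 over all entries). In the LV 73 were called lower and 1 higher, against 53.0% and 11.8% of all entries. All 73 that fell in the LV fell in the RV too. The median log2 change of the 81 was -0.77 in the RV and -0.65 in the LV, beside medians over all entries of -0.29 and -0.31. The middle of the set stood at 0.587 of its P0 level in the RV and at 0.638 in the LV.

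By role the counts were alike. In the RV 27 of 30 small subunit genes and 41 of 42 tested large subunit genes fell, with medians of -0.79 and -0.78. In the LV 26 of 30 and 39 of 42 fell, with medians of -0.61 and -0.68. All 3 stalk genes and 4 of 5 tested paralog forms fell in both chambers, and the fifth, Rpl3l, was the 1 gene that rose. Leaving out each library in turn kept 68 of the 77 calls in the RV and 69 of the 74 in the LV.

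The size of these counts depended on scaling, and most entries outside the set were lower at P7 too. With upper-quartile scaling, which brought the median of all entries to -0.03 in the RV and -0.07 in the LV, 60 genes fell in the RV and 47 in the LV, with medians over the 81 of -0.46 and -0.36, and 1 rose in each. The called genes kept their direction under upper-quartile scaling, scaling to the listed RPKM and to the listed RPKM without the set, except Rps2 and Rpl28 in the LV, whose change was 0.02 for each under upper-quartile scaling, and Rps2 in the RV, whose change was 0.00403 with scaling to the listed RPKM, none of these 3 passing the test there. Of all calls in the table, 82.4% in the RV and 81.7% in the LV were falls, against 52.7% and 58.1% with upper-quartile scaling. Without the 7 libraries low for NM_008710, 72 genes fell in the RV and 54 in the LV. Without RV P0 replicate 1 and RV P7 replicate 1, 60 fell in the RV.

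**Figure D2:**
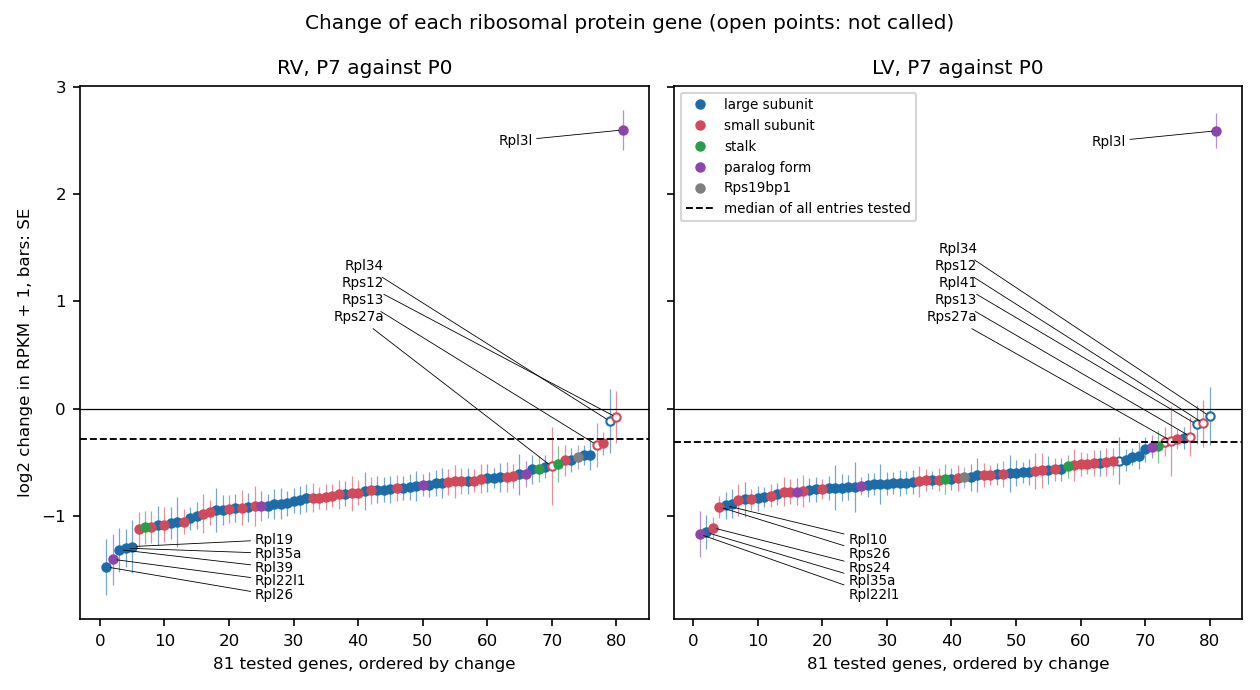
Log2 change in RPKM + 1 at P7 against P0 (vertical axis, bars are SE) of the 81 tested genes, ordered by size, in the RV (left) and the LV (right), coloured by role. Filled points passed the test, open points did not, and the dashed line is the median of all entries tested (-0.29 in the RV and -0.31 in the LV). The set lies below 0 in one continuous run, with Rpl3l alone above it, at 2.60 in the RV and 2.59 in the LV.

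Among small subunit genes the largest falls in the LV were those of Rps24 and Rps26. Rps26, which lies at the mRNA exit channel and contacts the message, stood in the LV at 1430.4, 1207 and 1426 RPKM at P0, 831, 881 and 812 at P3 and 714, 694 and 741 at P7. In the RV its values were 1427, 1183 and 1529 RPKM at P0, 905, 946 and 825 at P3 and 685 and 721 at P7. No P3 or P7 library reached any P0 library, and the log2 change at P7 against P0 was -0.96 ± 0.12, adjusted p = 2.05e-06 in the RV and -0.91 ± 0.10, adjusted p = 5.40e-07 in the LV.

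Rps6, the small subunit protein that S6 kinase phosphorylates downstream of mTOR, averaged 339 ± 10.9 RPKM in RV P7 (SD, n = 2) and 604 ± 54.5 in RV P0 (SD, n = 3), a log2 change of -0.83 ± 0.10, adjusted p = 2.62e-06. In LV P7 it averaged 359 ± 6.86 RPKM, against 603 ± 25.4 in LV P0 (SD, n = 3 each), a change of -0.75 ± 0.09, adjusted p = 1.36e-06. Rps19, the small subunit gene most often mutated in Diamond-Blackfan anaemia, changed by -1.08 ± 0.17, adjusted p = 3.14e-05 in the RV and -0.77 ± 0.15, adjusted p = 1.94e-04 in the LV. Rps6 was among the genes with the smallest spread between libraries of a group (residual SD 0.0954 on the log2 scale).
Rpsa, the small subunit protein also known as the laminin receptor precursor, averaged 475 ± 32.5 RPKM in RV P7 and 824 ± 131 in RV P0, a change of -0.78 ± 0.12, adjusted p = 2.64e-05. Its LV averages were 451 ± 17.3 RPKM at P7 and 794 ± 64.00 at P0 (change -0.81 ± 0.11, adjusted p = 2.96e-06). Rps19bp1, which belongs to the set by symbol only and encodes a partner of Rps19, changed by -0.45 ± 0.11, adjusted p = 0.00181 in the RV and -0.64 ± 0.10, adjusted p = 1.46e-05 in the LV.

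Among large subunit genes Rpl35a fell furthest in the LV. Rpl35a, also mutated in Diamond-Blackfan anaemia, stood in the LV at 141, 160.2 and 203 RPKM at P0, 169, 109.5 and 130.2 at P3 and 68.9, 76.7 and 77.3 at P7, and in the RV at 239, 145 and 191 RPKM at P0, 137, 126 and 126 at P3 and 76.4 and 74.98 at P7. The LV P3 libraries overlapped those of P0, and the P7 libraries of both chambers lay below all others. The log2 change at P7 was -1.30 ± 0.18, adjusted p = 9.54e-06 in the RV and -1.15 ± 0.16, adjusted p = 5.88e-06 in the LV. Its 2 other entries averaged 5.07 and 0.698 RPKM in LV P7, against 11.6 and 1.74 in LV P0.

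Rpl10, the X-linked protein that joins the large subunit late in the cytoplasm, stood in the RV at 1329.8, 954 and 1170.1 RPKM at P0, 895, 965 and 782 at P3 and 591 and 614 at P7. Its LV values were 1089.6, 980.0 and 1268 RPKM at P0, 931, 849.9 and 792 at P3 and 581, 562 and 635 at P7. The 3 ages did not overlap in the LV, and P3 overlapped P0 in the RV, where the change at P7 against P0 was -0.92 ± 0.14, adjusted p = 2.39e-05 in the RV and -0.90 ± 0.12, adjusted p = 4.84e-06 in the LV. Rpl36a, whose protein lies near the exit site for transfer RNA, changed by -1.07 ± 0.15, adjusted p = 1.20e-05 in the RV and -0.88 ± 0.13, adjusted p = 1.55e-05 in the LV.

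In the RV Rpl26, Rpl39 and Rpl19 were among the 5 genes with the largest falls. Rpl26, listed low, stood in the RV at 5.66, 6.01 and 7.43 RPKM at P0, 3.09, 4.25 and 2.98 at P3 and 1.57 and 1.71 at P7 (P7 against P0 -1.47 ± 0.26, adjusted p = 1.30e-04). Rpl39, a short basic protein in the wall of the exit tunnel, stood in the RV at 994, 544 and 529.5 RPKM at P0 and 229 and 306 at P7, so that 1 P0 library was far above the others (P7 against P0 -1.31 ± 0.21, adjusted p = 3.91e-05). Rpl19, which forms a bridge to the small subunit, stood at 19.95 and 40.02 RPKM in RV P7, against 84.1, 61.2 and 67.8 in RV P0 (-1.28 ± 0.25, adjusted p = 2.75e-04).
In the LV these 3 genes changed by -0.73 ± 0.23, -0.70 ± 0.18 and -0.49 ± 0.22. The difference between the chambers in the P7 against P0 change was -0.75 ± 0.35 for Rpl26, -0.61 ± 0.28 for Rpl39 and -0.80 ± 0.33 for Rpl19 (limma, adjusted p = 0.998, 0.993 and 0.938), so no difference between chambers passed. The LV call of Rpl26 ended without LV P0 replicate 3 (adjusted p = 0.0930) or LV P7 replicate 1 (0.0661), and Rpl19 was not called in the LV.

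Rpl5 and Rpl11, which with 5S rRNA form the particle that binds Mdm2 when ribosome assembly is disturbed, moved with the rest. Rpl5 changed by -0.76 ± 0.12, adjusted p = 6.72e-05 in the RV and -0.76 ± 0.11, adjusted p = 1.12e-05 in the LV. For Rpl11 the changes were -0.94 ± 0.14, adjusted p = 2.56e-05 in the RV and -0.74 ± 0.13, adjusted p = 6.22e-05 in the LV. Rpl38, which in mouse embryos is needed for translation of Hox messages, stood in the RV at 73.3 and 125 RPKM at P7, against 198, 159 and 253 at P0 (-1.05 ± 0.23, adjusted p = 9.82e-04). In the LV it stood at 98.2, 104 and 89.1 RPKM at P7, against 137, 144 and 216 at P0 (-0.74 ± 0.21, adjusted p = 0.00476), without overlap in either chamber. Without RV P7 replicate 1 the RV change was -0.67 (adjusted p = 0.0548).

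The stalk proteins recruit elongation factors to the ribosome. Rplp0, the stalk base, averaged 779 ± 67.8 RPKM in RV P7 and 1158 ± 182 in RV P0 (change -0.56 ± 0.12, adjusted p = 8.17e-04), and 773 ± 52.2 in LV P7 and 1123 ± 53.3 in LV P0 (-0.54 ± 0.11, adjusted p = 3.11e-04). The acidic protein gene Rplp1 changed by -1.11 ± 0.16, adjusted p = 1.32e-05 in the RV and -0.66 ± 0.14, adjusted p = 4.76e-04 in the LV. Its partner Rplp2 changed by -0.51 ± 0.17, adjusted p = 0.0155 in the RV and -0.35 ± 0.15, adjusted p = 0.0489 in the LV. Its RV call ended without RV P0 replicate 1 (adjusted p = 0.0823) or RV P7 replicate 1 (0.176), and its LV call without each of 10 libraries (0.0513 to 0.199).

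Several of these genes are used in the field as reference genes for PCR: Rplp0, Rpl13a, Rpl32, Rps18 and Rps29. All 5 were called lower in both chambers, all with the same direction under 3 other scalings. Several of these calls ended with the scaling. With upper-quartile scaling Rplp0 (adjusted p = 0.0520), Rpl13a (0.0624) and Rps29 (0.177) missed the threshold in the LV and Rplp0 (0.0824) in the RV. With scaling to the listed RPKM Rplp0 (0.0847) and Rpl13a (0.0502) missed it in the RV and Rps29 (0.105) in the LV, and Rps29 missed it in the LV without the set too (0.0700). Rpl32 had the largest LV change of the 5, at -0.93 ± 0.13, adjusted p = 1.47e-05 in the RV and -0.73 ± 0.12, adjusted p = 3.16e-05 in the LV, and Rps29 the largest RV change, at -0.98 ± 0.18, adjusted p = 2.25e-04 in the RV and -0.57 ± 0.16, adjusted p = 0.00501 in the LV. Rpl13a changed by -0.69 ± 0.14 in the RV and -0.59 ± 0.12 in the LV, and Rps18 by -0.65 ± 0.13 in the RV and -0.65 ± 0.12 in the LV.

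The genes that were called in neither chamber were Rps12, Rps13, Rps27a and Rpl34, and 3 more (Rps20, Rpl19 and Rpl41) were called in the RV alone. P0 replicate 3 was the lowest P0 library of both chambers for each of the 4, as it was for 17 of the 81 tested genes. Rps12, a small subunit protein, stood in the RV at 1028, 732 and 501 RPKM at P0, 654, 763 and 587 at P3 and 599 and 779.5 at P7, and in the LV at 967, 813 and 511 RPKM at P0, 524, 671 and 514 at P3 and 693, 655 and 669 at P7. The ages overlapped in both chambers, and the change at P7 against P0 was -0.08 ± 0.24, adjusted p = 0.793 in the RV and -0.13 ± 0.22, adjusted p = 0.596 in the LV.

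Rps27a, made as a fusion of ubiquitin with the ribosomal protein, had the widest spread between libraries of a group of the 81 genes (residual SD 0.516 on the log2 scale). It stood in the RV at 654, 435 and 225 RPKM at P0 and 225 and 337 at P7, and in the LV at 477, 479 and 310.0 RPKM at P0 and 372, 369.9 and 276 at P7. The ages overlapped in both chambers. The change was -0.54 ± 0.36, adjusted p = 0.213 in the RV and -0.30 ± 0.33, adjusted p = 0.425 in the LV. Its second entry, NM_001033865, was called lower in both chambers, at 6.87 and 5.77 RPKM in RV P7, with a mean of 11.1 in RV P0, and a mean of 6.53 in LV P7, against 11.8 in LV P0 (changes -0.70 ± 0.18, adjusted p = 0.00266, and -0.77 ± 0.16, adjusted p = 3.44e-04).
Rpl34, a large subunit protein, had the next widest spread (0.424), and its main entry changed by -0.12 ± 0.30, adjusted p = 0.756 in the RV and -0.07 ± 0.27, adjusted p = 0.826 in the LV. Its second entry, NM_026724, was called lower in both, with changes of -0.97 ± 0.20 in the RV and -0.88 ± 0.18 in the LV (adjusted p = 5.04e-04 and 3.16e-04). For Rps13 the changes were -0.34 ± 0.21, adjusted p = 0.167 in the RV and -0.26 ± 0.18, adjusted p = 0.221 in the LV.

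The 1 gene that rose was Rpl3l (chromosome 17, 24727826 to 24736143 in GRCm38), the form of Rpl3 restricted to heart and skeletal muscle. Both proteins occupy the same place near the peptidyl transferase centre. In the RV Rpl3l stood at 0.261, 0.193 and 0.0789 RPKM at P0, 2.29, 1.61 and 1.93 at P3 and 6.05 and 6.17 at P7. In the LV it stood at 0.122, 0.399 and 0.0194 RPKM at P0, 1.30, 2.17 and 1.998 at P3 and 8.16, 4.65 and 5.74 at P7. No age overlapped another in either chamber.

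The rise was large against its error in both chambers. The log2 change in RPKM + 1 at P7 against P0 was 2.60 ± 0.18, adjusted p = 2.40e-09 in the RV and 2.59 ± 0.16, adjusted p = 2.86e-10 in the LV. The mean RPKM at P7 was 34.4 times that at P0 in the RV and 34.3 times in the LV. Recovered as reads, the entry held 306 and 322 reads in the RV P7 libraries and 13, 9 and 4 in RV P0, and 406, 216 and 292 in LV P7 and 7, 17 and 1 in LV P0, so the P0 level rests on few reads. Scaled to the listed RPKM, where the pseudocount of 1 weighs less, the change was 3.79 in the RV and 3.78 in the LV. Each step passed: 1.32 ± 0.16, adjusted p = 6.50e-06 for P3 against P0 and 1.28 ± 0.18, adjusted p = 1.97e-04 for P7 against P3 in the RV, and 1.26 ± 0.16, adjusted p = 1.62e-05 for P3 against P0 and 1.33 ± 0.16, adjusted p = 1.61e-05 for P7 against P3 in the LV. A second Rpl3l entry, NM_025425, held at most 0.574 RPKM as a group mean and was not tested.

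Rpl3 itself fell, and it remained by far the larger of the pair. It averaged 399 ± 62.4 RPKM in RV P7 and 637 ± 94.7 in RV P0 (-0.67 ± 0.12, adjusted p = 1.28e-04), and 383 ± 15.04 in LV P7 and 621 ± 26.6 in LV P0 (-0.70 ± 0.11, adjusted p = 1.70e-05). Of the summed RPKM of both genes, Rpl3l made up 1.68 and 1.37% in the RV P7 libraries and 2.002, 1.24 and 1.49% in LV P7, against at most 0.0641% in any P0 library.

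The other 4 tested paralog forms fell. Rpl22l1, the paralog that in mouse is repressed by Rpl22, had the largest LV fall of the 81 genes: it stood in the RV at 31.4, 17.8 and 17.2 RPKM at P0, 11.6, 17.6 and 12.3 at P3 and 6.55 and 8.42 at P7. Its LV values were 22.1, 18.5 and 23.1 RPKM at P0, 11.8, 11.6 and 11.8 at P3 and 7.84, 13.1 and 6.68 at P7. All P7 libraries lay below all P0 libraries of their chamber, and the change was -1.40 ± 0.24, adjusted p = 8.19e-05 in the RV and -1.17 ± 0.21, adjusted p = 1.04e-04 in the LV. The Rpl22 entries, at most 0.0976 RPKM in any library for the entry used, were too low to set beside it.

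Rpl36al, the autosomal retrogene of X-linked Rpl36a, averaged 148 ± 38.7 RPKM in RV P7 and 274 ± 14.2 in RV P0 (-0.91 ± 0.14, adjusted p = 3.85e-05). It averaged 151 ± 10.01 RPKM in LV P7 and 259 ± 27.6 in LV P0 (-0.77 ± 0.13, adjusted p = 3.80e-05). Its share of the pair was 33.8 and 35.1% in RV P7, against 30.2% to 35.6% in RV P0, and 32.6, 29.9 and 33.8% in LV P7, against 28.5% to 33.6% in LV P0, with overlap in both chambers.
Rpl7l1, a relative of Rpl7, changed by -0.71 ± 0.10, adjusted p = 1.04e-05 in the RV and -0.72 ± 0.09, adjusted p = 1.39e-06 in the LV, and Rpl7 by -0.85 ± 0.13 in the RV and -0.68 ± 0.11 in the LV. Rps27l, a relative of Rps27 that p53 induces in human cells, changed by -0.61 ± 0.12, adjusted p = 4.28e-04 in the RV and -0.35 ± 0.11, adjusted p = 0.00895 in the LV. The other 6 paralog forms (Rpl10l, Rpl32l, Rpl37rt, Rpl39l, Rps23rg1 and Rps27rt) stayed under the filter.

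**Figure D3:**
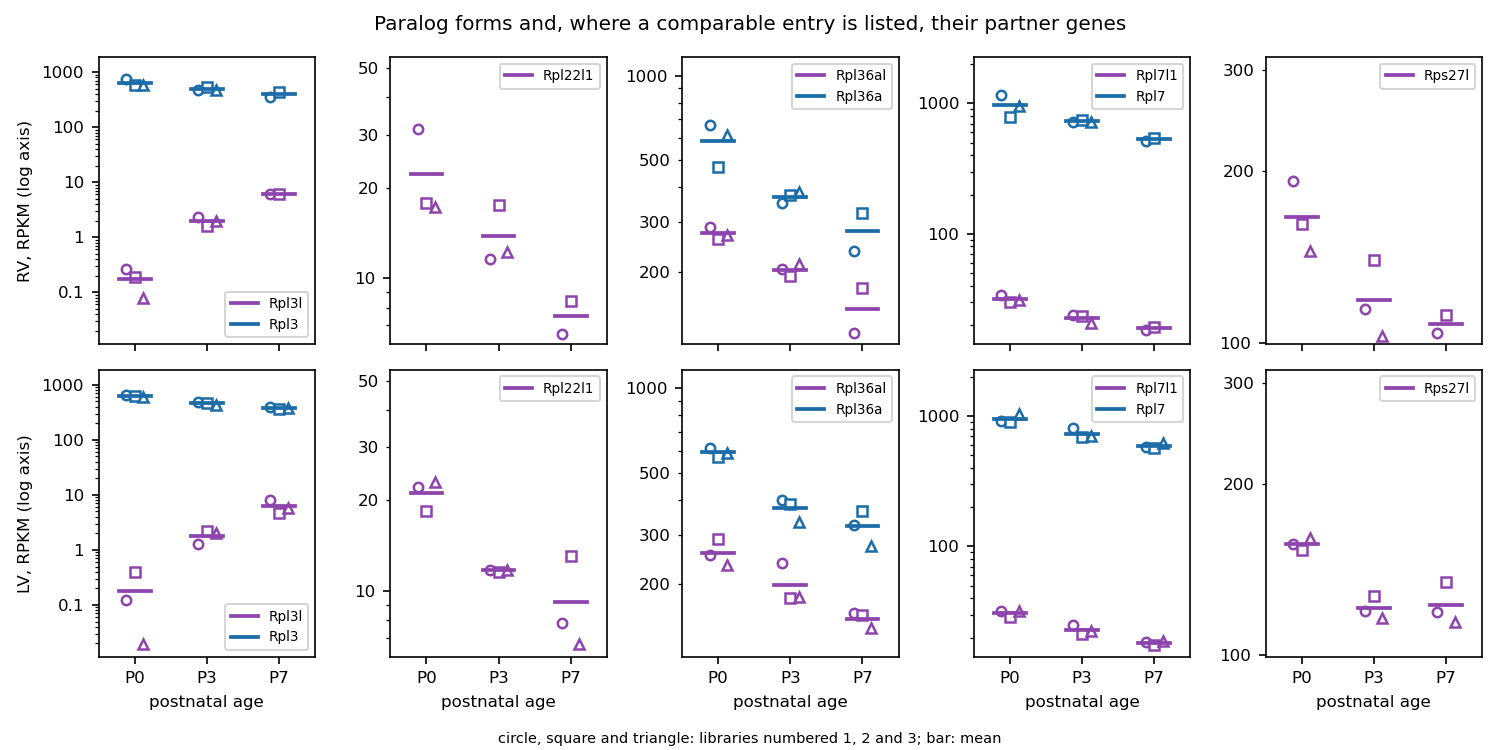
RPKM of 5 paralog forms (purple) and of 3 partner genes (blue) on log axes, by postnatal age, in the RV (upper row) and the LV (lower row). Points are single libraries and bars are group means, taken on the linear scale. Rpl3l rises at each age while Rpl3 falls, and the 4 other paralog forms are lower at P7 than at P0.

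Rps24, a small subunit protein that is mutated in some cases of Diamond-Blackfan anaemia, was listed in 3 transcript forms. Their changes differed in size and in sign, though the positive change of NM_207634 did not pass the test. The recovered lengths of 875, 857 and 837 bases differ by 18 and 20 bases. In GENCODE M21 the transcripts tied to these entries, which differ there at their ends too, have 2 short exons of those lengths late in the message. The entry NM_207635 holds the 18-base exon, which carries its stop codon, and the 20-base exon after it. NM_011297 holds the 20-base exon, with its stop codon there, and NM_207634 holds neither. The exons are printed because they separate the entries, with the stop codon in capitals.
Rps24 exon of NM_207635, chr14:24494052-24494069 in GRCm38, plus strand: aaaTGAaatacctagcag
Rps24 exon of NM_011297, chr14:24495430-24495449 in GRCm38, plus strand: TGAgtggagattggatacag

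NM_207635, the entry used above, fell, while NM_207634 did not pass the test. In the RV NM_207635 stood at 268, 253 and 279 RPKM at P0, 147, 153 and 156 at P3 and 111 and 148 at P7, and in the LV at 302, 310.2 and 324 RPKM at P0, 217, 198 and 177 at P3 and 142, 160.4 and 131 at P7. It changed by -1.05 ± 0.12 in the RV and -1.11 ± 0.10 in the LV at P7 against P0 (adjusted p = 8.13e-07 and 5.53e-08). NM_207634 stood at 33.01 and 42.4 RPKM in RV P7, against a mean of 31.5 ± 5.65 in RV P0 (change 0.25 ± 0.16, adjusted p = 0.172). In LV P7 it averaged 42.1 ± 5.57 RPKM, against 33.97 ± 2.24 in LV P0 (change 0.30 ± 0.14, adjusted p = 0.0701). NM_011297 changed by -0.45 ± 0.15 in the RV and -0.39 ± 0.13 in the LV (adjusted p = 0.0135 and 0.0138).

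The shares of NM_207635 and NM_207634 did not overlap between P7 and P0. NM_207635 made up 63.4, 69.9 and 68.3% of the Rps24 RPKM in RV P0, 54.8, 51.4 and 58.3% in RV P3 and 53.8 and 54.2% in RV P7. In the LV it made up 68.5, 69.6 and 72.1% at P0, 63.4, 61.8 and 62.6% at P3 and 53.3, 55.8 and 56.2% at P7. NM_207634 made up 16.02 and 15.6% in RV P7, against 7.29% to 8.91% in RV P0, and 15.97, 16.5 and 15.5% in LV P7, against 6.99% to 8.08% in LV P0. The log2 ratio of NM_207635 to NM_207634 was 1.77 in RV P7, against 3.09 in RV P0, and 1.78 in LV P7, against 3.20 in LV P0. An exact two-sided permutation of the ages within each chamber gave p = 0.1 in each, the smallest that the 10 arrangements in the RV and the 20 in the LV allow. This ratio was chosen after its values were seen, and the sources used here do not say how reads were divided between the entries.

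**Figure D4:**
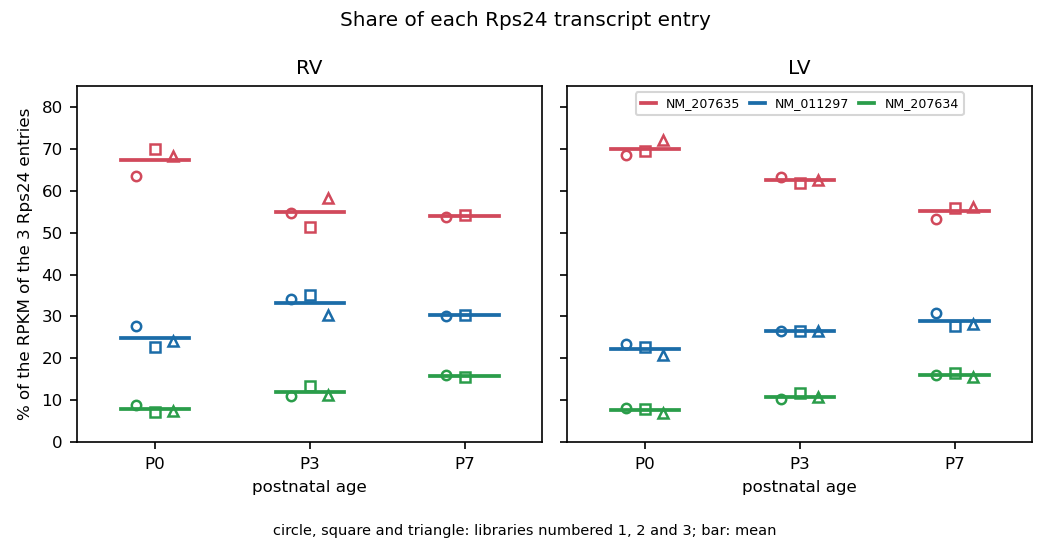
Share of each of the 3 Rps24 entries in their summed RPKM (vertical axis, percent) by postnatal age, in the RV (left) and the LV (right). Points are single libraries and bars are group means. NM_207635 lies above 63% in all P0 libraries and below 57% in all P7 libraries, and NM_207634 lies above 15% in all P7 libraries and below 9% in all P0 libraries.

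The set had negative medians in both steps, the larger for P3 against P0 in the LV, while in the RV the order of the steps turned with the scaling. For P3 against P0, 68 genes were called lower and 1 higher in the RV, where 21.5% and 9.72% of all entries were. In the LV 60 were called lower and 1 higher, against 20.6% and 7.26% of all entries. The median log2 changes were -0.43 in the RV and -0.42 in the LV, beside -0.09 and -0.13 over all entries. For P7 against P3, 26 were called lower and 1 higher in the RV (14.8% and 2.50% of all entries), and 17 and 1 in the LV (27.9% and 6.56%). In the LV the share of the set called lower in this step was below that of all entries. The medians were -0.34 in the RV and -0.22 in the LV, beside -0.19 and -0.17 over all entries.

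The counts of the steps moved with the scaling. For P3 against P0 in the RV, 49 genes were called lower with upper-quartile scaling, 15 with scaling to the listed RPKM and 16 with scaling to the listed RPKM without the set. With scaling to the listed RPKM 8.63% of all entries were called lower and 23.8% higher in that comparison. The LV counts for P3 against P0 were 32, 33 and 38 under these scalings. For P7 against P3 the counts were 2, 19 and 22 in the RV and 6, 7 and 7 in the LV. The RV medians were -0.19 for P3 against P0 and -0.26 for P7 against P3 with scaling to the listed RPKM, and -0.22 and -0.28 without the set.

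Among the 75 tested subunit and stalk genes the step to P3 was the larger fall in 49 in the RV and in 68 in the LV. With scaling to the listed RPKM it was the larger in 29 in the RV and 64 in the LV, and in the RV the median was then -0.19 for P3 against P0 and -0.26 for P7 against P3. Upper-quartile scaling went the other way in the RV: the step to P3 was the larger in 66, with medians of -0.33 and -0.12. In the LV it was the larger in 68 under that scaling. The gene with the largest LV fall to P3 was Rpl22l1 (-0.80 ± 0.21, adjusted p = 0.00858), then Rpl38 (-0.68 ± 0.21, adjusted p = 0.0203) and Rps26 (-0.68 ± 0.10, adjusted p = 7.60e-05). In the RV it was Rpl41, the smallest ribosomal protein, which stood at 6.88, 6.403 and 6.74 RPKM at P3, against 15.3, 11.4 and 18.3 at P0 (-1.04 ± 0.19, adjusted p = 3.13e-04), then Rpl38 (-1.03 ± 0.21, adjusted p = 9.07e-04) and Rps24 (-0.81 ± 0.10, adjusted p = 9.90e-06).
In the second step Rpl35a fell in both chambers, with changes of -0.77 ± 0.18, adjusted p = 0.00845 in the RV and -0.84 ± 0.16, adjusted p = 8.19e-04 in the LV. Rpl30 (-0.67 ± 0.16, adjusted p = 0.0045) and Rpl10 (-0.53 ± 0.12, adjusted p = 0.00324) were next among the named LV genes, and Rpl22l1 (-0.79 ± 0.24, adjusted p = 0.0289) and Rps19 (-0.67 ± 0.17, adjusted p = 0.0115) in the RV.

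The counts of the single steps rest on few libraries. Without RV P7 replicate 1 the RV count of falls at P7 against P3 was 1 of 81, without any 1 of the RV P3 libraries it was 16, and without RV P0 replicate 1 it was 40. The RV count of falls for P3 against P0 was 41 without RV P0 replicate 1 and 45 without RV P3 replicate 3. The LV count for P7 against P3 was 7 without LV P3 replicate 1, 10 without LV P7 replicate 1 and 8 without LV P7 replicate 2. Without the 7 libraries low for NM_008710, which leaves 1 library in each P3 and P7 group, assumed to vary like the rest, the counts of falls at P3 against P0 were 6 in the RV and 1 in the LV.

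Between the ventricles 1 gene of the 81 passed a test. At P0, P3 and P7 no gene of the 81 was called between RV and LV, where 0.141%, 0.825% and 0.159% of all entries were. An unadjusted p under 0.05 (limma) was reached by 3, 1 and 1 genes of the 81. These were smaller shares than the 7.05%, 10.8% and 7.00% of all entries. Averaged over the ages 1 gene was lower in the RV and none higher, where 0.816% of all entries were called lower and 0.797% higher. This gene was Rps24, at -0.26 ± 0.06, adjusted p = 0.0417. Its entry NM_207635 stood lower in every RV library than in every LV library at P0 and at P3 (values above), with log2 differences of -0.23 ± 0.10 at P0, -0.37 ± 0.10 at P3 and -0.17 ± 0.12 at P7. With same-numbered libraries of an age kept as pairs, the averaged difference was -0.28 (adjusted p = 0.00258) and the P3 difference passed too (adjusted p = 0.0106, against 0.103 without pairs). Over all entries the paired fit also called more: 5.63% lower and 3.02% higher averaged over the ages, and 2.93% lower and 3.06% higher at P3. With the 3 entries summed the averaged difference was -0.16 (adjusted p = 0.229), and leaving out single libraries gave adjusted p from 0.0107 to 0.186. The call held only without LV P3 replicate 2 or 3, LV P7 replicate 3, RV P0 replicate 1 or RV P7 replicate 2, and ended without each of the other 12 libraries.

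The test of a difference between the chambers in the P7 against P0 change (limma) called 0 of 81 genes, where it called 0.0375% of all entries. At an unadjusted p under 0.05 (limma) there were 5 genes of the 81 (Rpl41, Rpl19, Rpl39, Rplp1 and Rpl26), a share near the 4.84% of all entries that passed at that level. Each of the 5 had the larger fall in the RV. The median difference over the 81 was -0.15, beside 0.03 over all entries. Both RV libraries that stood apart enter it on the side of a larger RV fall. Over the subunit and stalk genes, RV P0 replicate 1 lay 0.22 above its group mean and RV P7 replicate 1 lay 0.12 below its own (medians, log2 scale). The median difference without these libraries is not given here.

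Lists of genes that make ribosomes without being part of them were counted in the same way, where 46.1% of all entries were called lower in the RV and 53.0% in the LV. Of 36 tested ribosome assembly factors, 35 fell in each chamber, with medians of -0.64 in the RV and -0.67 in the LV. The histone chaperone and nucleolar protein Npm1 averaged 9.41 ± 1.16 RPKM in RV P7 and 27.5 ± 2.10 in RV P0 (-1.46 ± 0.11, adjusted p = 1.03e-08). In the LV its averages were 10.4 ± 1.04 RPKM at P7 and 30.2 ± 3.17 at P0 (-1.46 ± 0.10, adjusted p = 1.09e-09). The GTPase nucleostemin, Gnl3, and the rRNA methyltransferase Nop2 changed by -1.12 ± 0.17, adjusted p = 1.57e-05 and -1.10 ± 0.14, adjusted p = 3.11e-06 in the LV. With upper-quartile scaling 21 assembly factors fell in the RV and 29 in the LV, with none rising.

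All 11 tested proteins of the small nucleolar particles that modify rRNA fell in both chambers. Nop58 averaged 20.9 ± 3.65 RPKM in RV P7 and 47.8 ± 3.04 in RV P0 (-1.16 ± 0.11, adjusted p = 7.00e-08), and 21.4 ± 0.788 in LV P7 and 54.7 ± 1.83 in LV P0 (-1.31 ± 0.10, adjusted p = 1.72e-09). The methyltransferase Fbl changed by -0.87 ± 0.10, adjusted p = 1.01e-06 in the RV and -1.02 ± 0.09, adjusted p = 1.80e-08 in the LV. Of 14 tested genes of RNA polymerase I, which transcribes rRNA, and its factors, 10 fell in the RV and 11 in the LV. Polr1b, its second largest subunit, changed by -0.84 ± 0.15, adjusted p = 1.40e-04 in the RV and -0.74 ± 0.13, adjusted p = 1.11e-04 in the LV. The polymerase I medians were -0.34 in the RV and -0.46 in the LV, beside -0.29 and -0.31 over all entries. With upper-quartile scaling 10 snoRNP genes fell in the RV and 9 in the LV, and of the polymerase I genes 4 fell and 1 rose in the RV and 7 fell in the LV.

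Of 18 other genes known for TOP messages, 4 of which stand in the lists above or below, 15 fell in each chamber (9 in the RV and 8 in the LV with upper-quartile scaling), among them the nucleosome assembly protein Nap1l1 (-0.84 ± 0.14, adjusted p = 8.72e-05 in the RV and -1.10 ± 0.13, adjusted p = 7.99e-07 in the LV). Eef2 and Eif3f did not pass in either chamber. Of the ribosomal proteins with other symbols Fau and Rack1 fell in both chambers. Of 15 tested genes that control ribosome production, 7 fell in the RV, a share near the 46.1% of all entries called lower there, and 12 in the LV, where 53.0% were. These counts were 3 falls in the RV and 5 falls and 1 rise in the LV with upper-quartile scaling. Rheb, the activator of mTOR, changed by -0.91 ± 0.11, adjusted p = 1.97e-06 in the RV and -0.85 ± 0.10, adjusted p = 5.47e-07 in the LV, and Eif4ebp1, the mTOR target that holds back cap-dependent translation, by -0.71 ± 0.09, adjusted p = 2.48e-06 in the RV and -0.66 ± 0.08, adjusted p = 9.59e-07 in the LV.

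**Figure D5:**
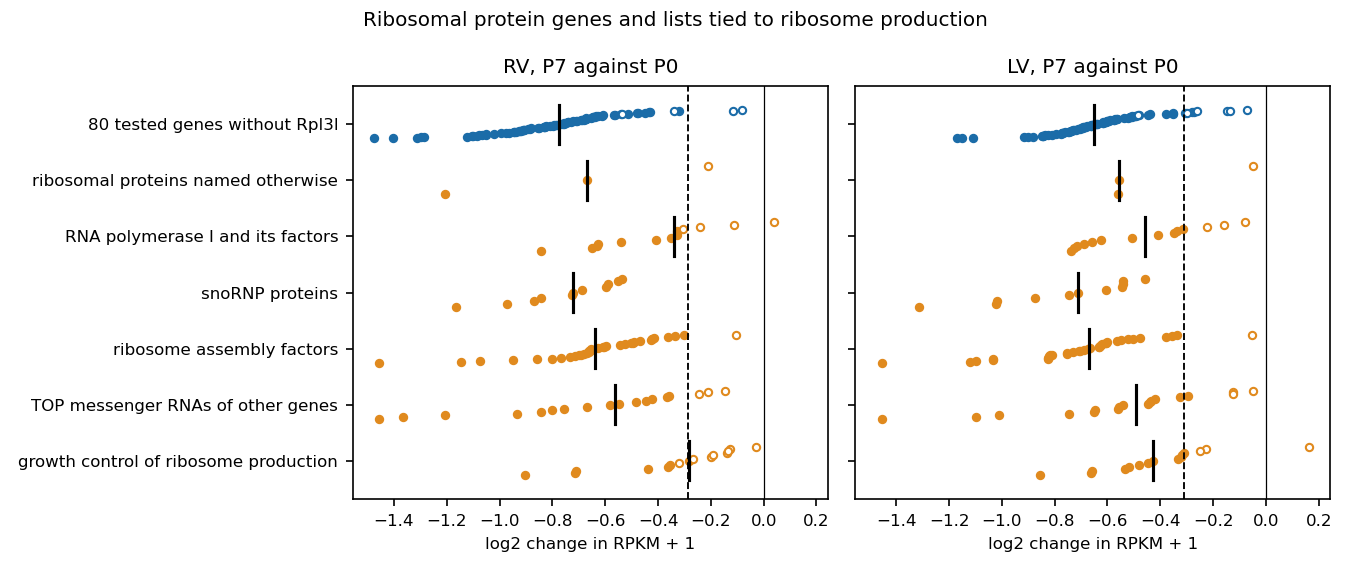
Log2 change in RPKM + 1 at P7 against P0 (horizontal axis) of the tested ribosomal protein genes without Rpl3l (blue) and of 6 lists tied to ribosome production (orange), in the RV (left) and the LV (right). Filled points passed the test, black bars are list medians, and the dashed line is the median of all entries tested. Assembly factors and snoRNP proteins lie in the range of the ribosomal protein genes, and RNA polymerase I genes closer to the median of all entries.

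Markers of other cells and of cell division moved over the same days. The 6 tested cell division genes fell in both chambers, their summed level being 101 to 105 RPKM in RV P7, against 217 to 297 in RV P0, and 96.7 to 109 in LV P7, against 269.6 to 313 in LV P0. Of 6 endothelial markers 5 rose in the RV and 6 in the LV, summing to 1300 to 1794 RPKM in RV P7, against 657 to 805 in RV P0, and 1867 to 2072 in LV P7, against 624 to 885 in LV P0. Of 6 fibroblast markers 4 rose in the RV and 2 in the LV, summing to 629 to 712 RPKM in RV P7, against 356 to 542 in RV P0, and 583 to 669 in LV P7, against 397 to 586 in LV P0. Of 5 macrophage markers 4 rose in the RV and 3 in the LV, with sums of 54.5 to 54.9 RPKM in RV P7, against 25.1 to 33.1 in RV P0, and 47.8 to 60.6 in LV P7, against 31.3 to 35.5 in LV P0. Of 8 cardiomyocyte markers 3 fell and 2 rose in each chamber, with sums that did not overlap between P7 and P0 (27686 to 31120 RPKM in RV P7, against 31831 to 40757 in RV P0, and 27205 to 28990.3 in LV P7, against 32845 to 37804 in LV P0). Of 7 erythroid markers 4 fell in the RV, and 1 fell and 1 rose in the LV. Their sum was 1635 to 3594 RPKM in RV P0, 533 to 781 in RV P3 and 1450.2 to 1472 in RV P7, and 1961 to 3036 in LV P0, 654 to 664 in LV P3 and 1849 to 2412 in LV P7. Of 5 atrial markers 3 fell and 1 rose in each chamber, and of 3 skeletal muscle markers 2 fell in each and 1 rose in the LV. The atrial sum was 17.5 to 65.1 RPKM in RV P7, against 362 to 576 in RV P0, and 59.4 to 73.7 in LV P7, against 259 to 327 in LV P0. No marker was at 0 in all libraries, and the part of any of these cells in the ribosomal protein changes was not tested. With upper-quartile scaling 5 fibroblast, 6 endothelial and 4 macrophage markers rose in each chamber, and 1 cardiomyocyte marker fell and 3 rose in each. Under that scaling 1 erythroid marker fell in the RV and none rose, and none fell and 3 rose in the LV. The atrial counts were 3 falling and 1 rising in the RV and 3 and 2 in the LV, 5 cell division genes fell in the RV and 6 in the LV, and the skeletal muscle counts did not change.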

How the data were processed

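The authors' deposited values are RPKM per RefSeq entry, in 17 libraries of ventricular total RNA. The unit was inferred from the values, since low values were whole multiples of what 1 read is worth (within 0.02 reads). In the set 100 of the 103 entries gave whole reads in all 17 libraries, with a length searched for where the GENCODE length did not. With GENCODE lengths alone, 3605 of the 20336 entries that have one gave whole reads in all libraries. STAR 2.4.0j and build mm10 are named in the submitters' processing notes, and the counting tool and its treatment of shared reads were not given in the sources used here. Entries were named with RefSeq and GENCODE M21, 169 of 20624 staying unnamed. Of these entries 10668 had at least 1 RPKM in at least 2 libraries. They were fitted as log2(RPKM + 1) with limma 3.58.1 (R 4.3.3, trend) over all 17 libraries in 6 groups, with Benjamini-Hochberg adjustment over all entries tested. A fold on this scale understates changes of low entries. Errors of log2 changes are SE. The labels call the libraries biological replicates without naming animals, and p-values measure the spread between them. Depth was 27561845 to 41061058 reads. It was inferred from the values too, taking the most frequent low step as 1 pair of reads.

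The members and gene lists were chosen with earlier results of these data known. The named genes are the stalk genes, Rpsa, Rps6, Rps19, Rpl5, Rpl11, Rpl38, Rpl3l and the other paralog forms, the reference genes, and the largest called changes of each comparison in either direction (6 for P7 against P0, 3 elsewhere) whose groups did not overlap and whose higher mean was at least 5 RPKM. Low Rpl and Rps entries, the uncalled genes and the entries of Rps24 were singled out after their values were seen. The fit was checked on simulated data. Replicate numbers come from the labels. Within an age the 8 same-numbered RV and LV pairs deviated together (correlations 0.269 to 0.587, 8 of 8 over 0.1), so they pair RV and LV within an age, while over the ages 3 of 32 same-numbered pairs passed 0.1. Python 3.11.15, numpy 2.4.6, pandas 2.3.3 and matplotlib 3.10.9 were used. A few genes that these rules name are not reported here.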

Additional observations from a re-analysis of the deposited data

Results flagged for a closer look

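Rpl34-ps1 was left out of the set because its symbol names a pseudogene, and its entry NM_001199350 had a mean of 87.6 RPKM over the 17 libraries, a signal in an entry that no comparison above uses. The Rpl34 entry used above had a mean of 50.5 RPKM. No source used here says how reads shared by both entries were assigned.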

How the results depend on the processing

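For P7 against P0 the counts of genes called lower stayed within 1.5 times the reported 76 in the RV and 73 in the LV under the settings tried, with 1 exception: 47 in the LV with upper-quartile scaling. Leaving out each library in turn gave 67 to 78 in the RV and 69 to 75 in the LV. Without the filter on low values 2 genes were called higher in the LV, Rpl39l beside Rpl3l.

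The single steps moved more. Of the 68 genes called lower in RV P3 against P0, the count was 15 with scaling to the listed RPKM, 16 with scaling to the listed RPKM without the set and 6 without the 7 libraries low for NM_008710, and 41 to 71 leaving out each library. Of the 60 in LV P3 against P0 it was 32 with upper-quartile scaling, 33 with scaling to the listed RPKM, 38 with scaling to it without the set, 1 without those 7 libraries, and 40 to 64 leaving out each library. For the 26 of RV P7 against P3 it was 12 without the filter, 2 with upper-quartile scaling, 0 without the 7 libraries, 5 without both RV number 1 libraries of P0 and P7, and 1 to 40 leaving out each library, and the 1 gene called higher, Rpl3l, was 0 without the 7 libraries. For the 17 of LV P7 against P3 it was 9 without the filter, 6 with upper-quartile scaling, 7 with each scaling to the listed RPKM, 2 without the 7 libraries, 28 without both RV number 1 libraries, and 7 to 24 leaving out each library. Rpl28 joined Rpl3l as a second gene called higher there, giving 2, with a pseudocount of 0.1, with 3 scalings (upper quartile, listed RPKM with and without the set), in the fit of the groups compared alone and without both RV number 1 libraries, and 1 to 2 genes were called higher leaving out each library.

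Between RV and LV averaged over the ages the 1 gene called lower became 0 without the filter, with upper-quartile scaling, with entries summed, without trend and under both exclusions of libraries chosen after seeing the data, and was 0 to 1 leaving out each library. At P3 the count was 1 with the replicate block within age and without both RV number 1 libraries, against 0. The replicate block within age changed no other count of the set between the chambers. Over all entries it raised the calls averaged over the ages from 0.816% to 5.63% lower and from 0.797% to 3.02% higher. The replicate block over all ages kept each count of called genes of the set within 1.5 times the reported one. The causes of these moves were not tested, except that leaving out libraries leaves fewer samples.

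The 2 RV P7 libraries limit that group. Entries under 1 RPKM, the Rpl3l level at P0 among them, rest on few reads, and counts under 20 reads there carry wide counting error.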
